A study of Mus musculus with 6 samples.

Results

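The genes described here encode the matrix of the perineuronal net: the lecticans Acan, Bcan, Ncan and Vcan, the link proteins Hapln1, Hapln2 and Hapln4, the tenascins Tnr and Tnc, and the hyaluronan synthase Has3. They were taken by symbol, and all 10 were found among the 55487 genes of the count table, each under 1 Ensembl identifier. RNA came from visual cortex dissected at postnatal day 28, on the strain background B6.CBA/Tar, from the line B6.CBA Mmp9em1Iimcb/Tar, in which the UTR of Mmp9 is mutated. There were 2 libraries each of UTRmut/UTRmut mice (UTRmut), UTRmut/WT mice (het) and WT/WT mice (WT), in each case replicate 1 from a female and replicate 2 from a male. The labels name no Cre, transgene or treatment, and they do not say which bases of the untranslated region are changed or whether animals were pooled.

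Perineuronal nets are lattices of matrix that wrap the soma and proximal dendrites of some neurons, in cortex mainly parvalbumin interneurons, and that mature as the critical period of visual plasticity closes. Hyaluronan chains, extruded by synthases such as Has3, form the backbone. Lecticans bind hyaluronan at one end, link proteins lock that bond, and tenascin-R crosslinks the other end of the lecticans. MMP-9, the product of Mmp9, is a secreted protease that cleaves matrix proteins around synapses.

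Total counts were 9500090 to 11966579 per library, between 23353 and 23845 genes had at least 1 count, and all 10 net matrix genes passed the filter on low counts that left 16119 genes. Values below are CPM, the reads of a gene scaled to a common library total with TMM factors. Mmp9 had 8 and 16 counts in UTRmut, 9 and 9 in het and 4 and 9 in WT, and its log2 fold did not pass in UTRmut against WT (0.86, SE 0.58; edgeR, Benjamini-Hochberg adjusted p = 0.9988). Cortical excitatory neuron markers, Slc17a7 among them, were all detected, with a summed level of 1339 to 1562 CPM. The WT female library stood apart for Acan, so results of net matrix genes that rest on it are also given without it. The share of counts in the annotation class TEC, provisional gene models, was 0.521% and 0.452% in the UTRmut female and male, 0.680% and 0.523% in het, and 0.751% and 0.477% in WT.

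Ncan and Bcan, the lecticans typical of brain, had the highest levels of the 10 genes once set per length. Per kb of merged exons, Ncan averaged 59.7 ± 4.55 CPM and Bcan 40.1 ± 3.27 (SD over the 6 libraries, n = 6). Tnr followed at 21.2 ± 1.44 CPM per kb, Hapln4 at 7.99 ± 1.45, Hapln1 at 6.14 ± 0.542 and Vcan at 2.001 ± 0.153. Tnc had 1.35 ± 0.298 CPM per kb, Acan 0.973 ± 0.224, Hapln2 0.659 ± 0.191 and Has3 0.473 ± 0.0907. Neighbours in this order were separated without overlap between libraries except for Hapln4 and Hapln1, Tnc and Acan, Acan and Hapln2, and Hapln2 and Has3. Hapln4 nonetheless lay above Hapln1 in 6 of 6 libraries, and Tnc above Acan in 4 of 6.

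**Figure D1:**
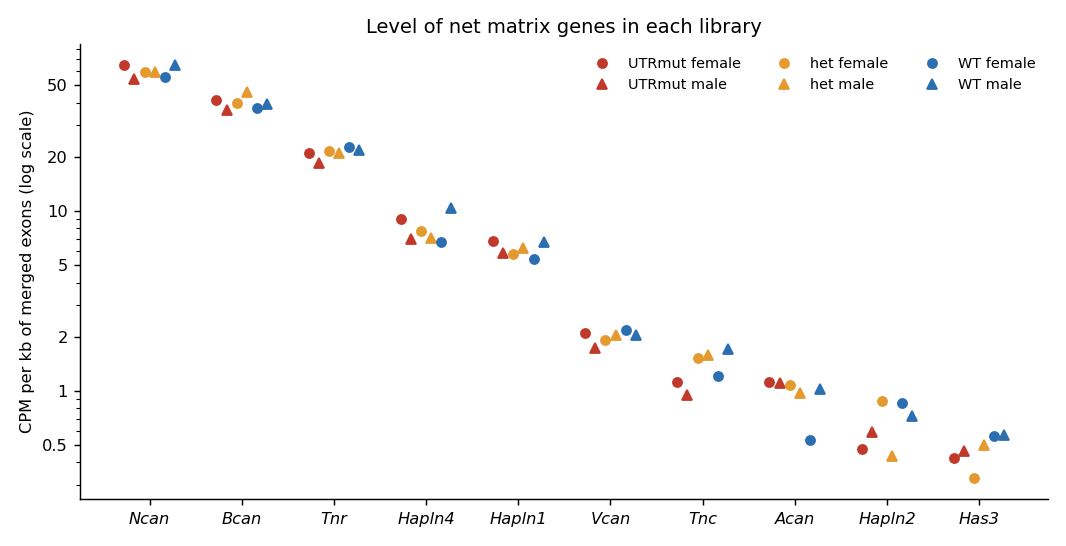
Level of each net matrix gene in CPM per kb of merged exons (log axis), with 1 point per library, circles for females and triangles for males, ordered by mean level. Ncan, Bcan and Tnr lie far above the rest, and the WT female point of Acan lies apart at 0.529.

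Within each family the mix was dominated by 1 or 2 members in every library. Ncan made up 55.0% to 60.2% of the summed lectican level per kb, Bcan 36.9% to 42.2%, Vcan 1.86% to 2.26% and Acan 0.552% to 1.19%. Among the 3 link protein genes Hapln4 held 51.4% to 58.3%, Hapln1 37.6% to 45.5% and Hapln2 2.90% to 6.58%. Tnr, the tenascin of mature brain, held 92.8% to 95.1% of the summed level of Tnr and Tnc, and Tnc, which is typical of developing brain and reactive glia, 4.88% to 7.23%.

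None of the 10 genes passed in UTRmut against WT (edgeR, Benjamini-Hochberg adjusted p = 0.9988 for each). Over all genes 1 of 16119 passed (0.00620%), DESeq2 passed 0 of the 10, and 1 of the 10, Tnc, had an unadjusted p under 0.05, where 2.71% of all genes did. The log2 fold was positive for 3 of the 10 with a median of -0.12, and over all genes 47.9% were positive with a median of -0.01. The 2 UTRmut values lay above both WT values for 1 member, Acan, and below both for 4, Hapln2, Tnr, Tnc and Has3. Over all genes tested, 14.0% lay above and 14.6% lay below in this sense.

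Acan encodes aggrecan, the lectican that marks mature nets around parvalbumin interneurons. It had 8.41 and 8.27 CPM in the UTRmut female and male, 8.02 and 7.29 in het, and 3.95 and 7.69 in WT. The WT female, with 41 counts where the other libraries had 77 to 95, was alone at the low end, and its 95% counting interval of 2.84 to 5.36 CPM did not reach that of any other library, the lowest of which began at 5.76. The log2 fold of UTRmut against WT was 0.51 (SE 0.27, 95% interval -0.08 to 1.09). Without the WT female it was 0.12, and without the WT male 1.08, where edgeR gave its lowest adjusted p of 10 alternatives, 0.0963, the highest being 0.9999. Summed markers of net-bearing parvalbumin neurons were at 1200 and 1097 CPM in UTRmut, 1118 and 1071 in het, and 1081 and 1125 in WT, and Pvalb itself had 37.5 and 37.2, 32.2 and 35.2, and 33.7 and 37.2 CPM in the same order. The WT female lay within the range of the other libraries in the summed markers. In bulk tissue fewer cells of a type and less RNA per cell cannot be told apart.

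Bcan encodes brevican, made by astrocytes, oligodendrocyte lineage cells and neurons. It had 168 and 148.1 CPM in UTRmut, 163 and 186 in het, and 152 and 161 in WT, and the UTRmut and WT values overlapped (log2 fold 0.01, SE 0.10, 95% interval -0.20 to 0.23). Ncan encodes neurocan, made by neurons and astrocytes. Its levels were 469 and 388 CPM in UTRmut, 426 and 428 in het, and 401 and 465 in WT. The UTRmut pair thus spanned about the same range as the WT pair, and the log2 fold was -0.01 (SE 0.10, 95% interval -0.23 to 0.21). Vcan encodes versican, a large lectican of loose matrix and nodes of Ranvier. It had 30.2 and 25.1 CPM in UTRmut, 27.8 and 29.6 in het, and 31.3 and 29.6 in WT, with a log2 fold of -0.14 (SE 0.13, 95% interval -0.42 to 0.14). Without the UTRmut male, the lowest library, it was -0.0146, and without the UTRmut female -0.28.

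Hapln1 encodes cartilage link protein, the general partner of lecticans on hyaluronan. It had 40.2 and 34.5 CPM in UTRmut, 34.2 and 36.8 in het, and 32.1 and 39.6 in WT (log2 fold 0.06, SE 0.13, 95% interval -0.22 to 0.34). Hapln4 encodes brain link protein 2, found in nets and around inhibitory synapses. Its levels were 35.4 and 27.6 CPM in UTRmut, 30.5 and 27.7 in het, and 26.2 and 40.9 in WT, so the WT pair held both the lowest and the highest library (log2 fold -0.10, SE 0.20, 95% interval -0.56 to 0.37). Hapln2 encodes brain link protein 1, a product of oligodendrocytes at nodes of Ranvier. It had 12 and 16 counts in UTRmut, 20 and 11 in het, and 21 and 20 in WT, or 1.12 and 1.39, 2.08 and 1.03, and 2.03 and 1.73 CPM. Its UTRmut values lay below both WT values, but counting error alone gave a coefficient of variation of 25.3%, against an observed 28.9% over the 6 libraries (log2 fold -0.57, SE 0.45, 95% interval -1.53 to 0.40). Summed oligodendrocyte markers were at 3164 and 4146 CPM in UTRmut, 3805 and 3868 in het, and 3958 and 3921 in WT, with the lowest value in the UTRmut female, and their part in the Hapln2 level was not tested.

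Tnr encodes tenascin-R, the crosslinker of lecticans, secreted by oligodendrocyte lineage cells and some interneurons. It had 271 and 239 CPM in UTRmut, 278 and 269 in het, and 293 and 282 in WT. Both UTRmut values lay below both WT values, while the het values lay between the WT pair and the UTRmut male and overlapped the UTRmut female. The log2 fold was -0.17 (SE 0.09, 95% interval -0.36 to 0.02), and without the UTRmut male it was -0.08. Tnc encodes tenascin-C, a matrix glycoprotein made by astrocytes. It had 8.69 and 7.40 CPM in UTRmut, 11.9 and 12.2 in het, and 9.45 and 13.3 in WT. UTRmut held the 2 lowest libraries, although the UTRmut female was close to the WT female. The log2 fold was -0.51 (SE 0.20, 95% interval -0.94 to -0.07, edgeR, Benjamini-Hochberg adjusted p = 0.9988, 0.0266 before adjustment), and it was -0.23 without the WT male and -0.73 without the WT female. Summed astrocyte markers were at 7238 and 6217 CPM in UTRmut, 6514 and 6553 in het, and 5845 and 6612 in WT, and their part in the Tnc level was not tested.

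RefSeq promoter windows of 250 bases before to 50 after a start (GRCm38.p6) matched 8 of the 10 genes, in 9 windows. Tnc, with the smallest p of the 10 in UTRmut against WT, and Ncan, with the highest level, are shown because their windows hold the letters TATAAA, in capitals (TTTATA where read on the other strand). In Tnc these letters lie in a stretch at chr4:64047125-64047151 on the minus strand, 126 bases before 1 RefSeq start and 205 before the other. In Ncan they lie at chr8:70120845-70120865 on the minus strand, 11 bases before the RefSeq start. In GENCODE the Ncan gene begins farther upstream, at 70120873, so the stretch lies within its annotated span.
Tnc: ttttcttcacTATAAAttgtatgcaaa
Ncan: cctgtgctccTTTATAagtga
Searched on both strands, TATAAA was in 3 of the 9 windows and in 13.6% of all 32851 windows of this length. The same Tnc stretch enters this count with each of the Tnc windows, so the 3 are not separate sites. The AP-1 motif TGANTCA was in 0 of the 9 and in 7.81% of all, the CRE motif TGACGTCA in 0 and 1.79%, the EGR motif GCGTGGGCG in 0 and 0.612%, and the E-box CACGTG in 0 and 7.15%.

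Has3, which extrudes hyaluronan through the plasma membrane, had 29 and 34 counts in UTRmut, 20 and 34 in het, and 37 and 42 in WT, or 2.71 and 2.96, 2.08 and 3.18, and 3.57 and 3.63 CPM. Its UTRmut values lay below both WT values, with counting intervals that overlapped, for example 2.05 to 4.13 CPM in the UTRmut male and 2.51 to 4.92 in the WT female (log2 fold -0.34, SE 0.32, 95% interval -1.03 to 0.34). Has3 shares 352 exon bases with Chtf8 on the opposite strand, and since the strand setting of the counting is not given, reads from those bases cannot be told apart.

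**Figure D2:**
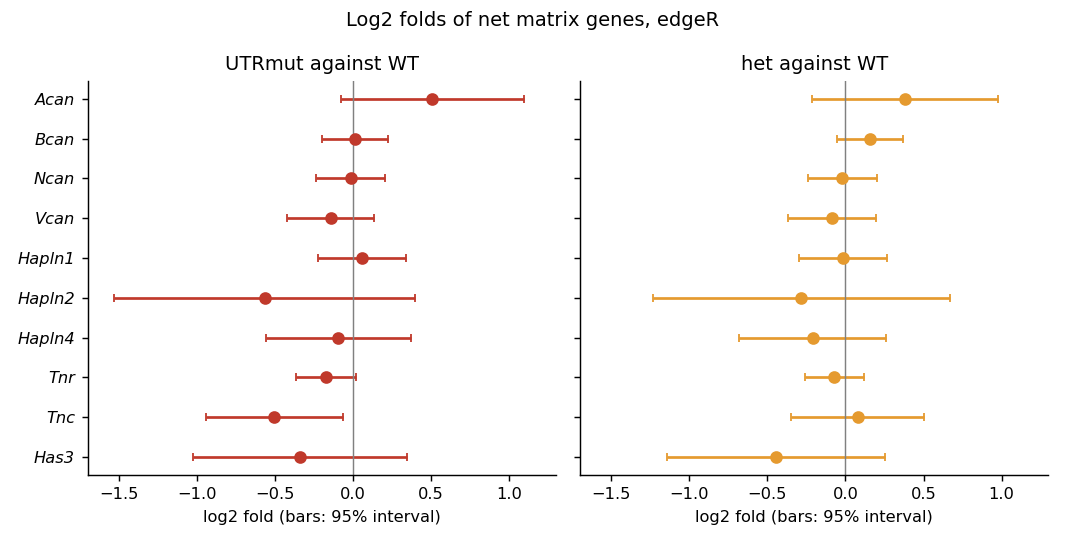
Log2 folds of the net matrix genes in UTRmut against WT (left) and het against WT (right), each point an edgeR estimate and each bar its 95% interval. The interval of Tnc in UTRmut, -0.94 to -0.07, is the only one of the 20 that does not include 0, and its adjusted p was 0.9988.

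**Figure D3:**
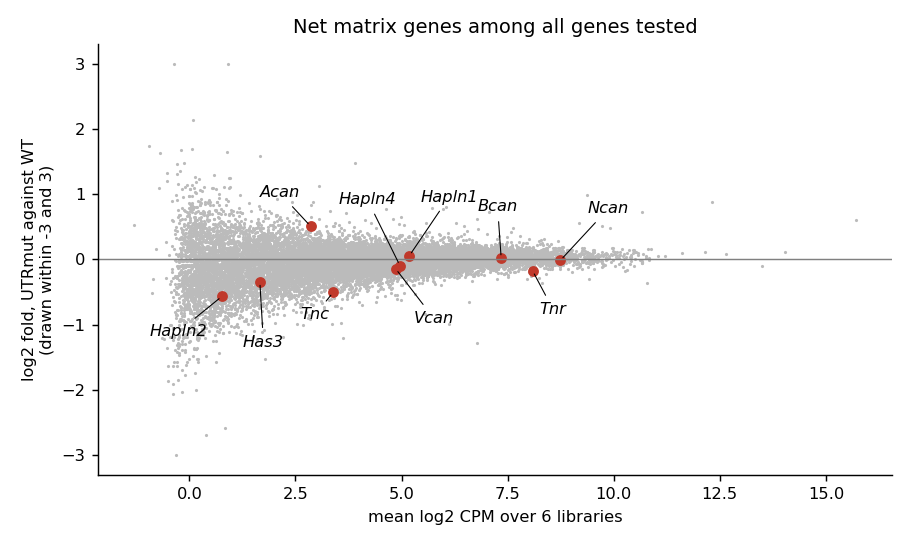
Log2 fold of UTRmut against WT against mean log2 CPM, with all genes tested in grey and the net matrix genes in red. Acan at 0.51, Tnc at -0.51 and Tnr at -0.17 lie toward the edge of the grey band at their level, and Ncan and Bcan lie near 0.

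In het against WT, none of the 10 genes passed (edgeR, Benjamini-Hochberg adjusted p = 0.9998 for each; 2 of 16119 genes passed, 0.0124%), 0 had an unadjusted p under 0.05 where 2.37% of all genes did, and DESeq2 passed 0. Log2 folds ran from -0.44 in Has3 (SE 0.33, 95% interval -1.14 to 0.26) to 0.38 in Acan (SE 0.28, 95% interval -0.21 to 0.98), with 3 of 10 positive and a median of -0.05. Of all genes tested, 48.9% were positive, with a median of -0.00380. The Has3 fold was -0.18 without the het female and -0.79 without the het male. Bcan was at 0.16 (SE 0.10), with both het values above both WT values, where 13.4% of all genes lay above. It was 0.0556 without the het male and 0.247 without the het female. Hapln2, Tnr and Has3 were at -0.28 (SE 0.44), -0.07 (SE 0.09) and -0.44 (SE 0.33). Groups that did not overlap below WT were found for 3 members, Vcan, Tnr and Has3, where 13.6% of all genes lay below. Vcan was at -0.09 (SE 0.13), Hapln4 at -0.21 (SE 0.21), Tnc at 0.08 (SE 0.20), and Ncan and Hapln1 each at -0.02 (SE 0.10 and 0.13). Without the WT female, the Acan fold was -0.01.

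UTRmut against het gave 0 passes among the 10 (edgeR, Benjamini-Hochberg adjusted p = 0.9999 for each, 0 by DESeq2), while 2 of 16119 genes passed (0.0124%). Tnc had the largest difference of the 10, with both UTRmut values below both het values, a log2 fold of -0.59 (SE 0.20, 95% interval -1.02 to -0.15) and an unadjusted p of 0.0127, under 0.05 as in 2.80% of all genes. It was -0.47 to -0.70 in the 6 fits that left out a library. Of all genes 17.9% lay below het without overlap, and 16.4% above, as did Acan, at 0.12 (SE 0.27). Bcan was at -0.14 (SE 0.10), Hapln2 at -0.29 (SE 0.47), Hapln4 at 0.11 (SE 0.21), Tnr and Has3 at -0.10 and 0.10 (SE 0.09 and 0.33), Vcan at -0.06, Hapln1 at 0.07 (SE 0.13 each) and Ncan at 0.01 (SE 0.10). These comparisons share libraries and are not independent of each other.

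Per mutant allele, 0 of the 10 genes passed (edgeR, Benjamini-Hochberg adjusted p = 0.9975 for each, 0 by DESeq2) and 0 of all 16119 genes did in edgeR (0%), with 503 under an unadjusted p of 0.05 (3.12%). Genotype means were in the order of allele number for 4 members. Acan was higher with each allele, and Vcan, Hapln2 and Tnr lower, where 17.2% and 18.6% of all genes were in order. The change per allele was 0.25 in Acan (SE 0.13), -0.07 in Vcan (SE 0.06), -0.28 in Hapln2 (SE 0.22) and -0.09 in Tnr (SE 0.04). Without the WT female, that of Acan was 0.0674. Tnc had -0.25 per allele (SE 0.11, 95% interval -0.48 to -0.01, edgeR, Benjamini-Hochberg adjusted p = 0.9975, 0.0408 before adjustment), but its means were not in order, at 8.04 ± 0.911, 12.1 ± 0.262 and 11.4 ± 2.72 CPM in UTRmut, het and WT (SD, n = 2 each). The others lay between -0.18 in Has3 (SE 0.16) and 0.03 in Hapln1 (SE 0.06).

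Some libraries were low or high for most members at once. The UTRmut male was below the 6-library mean for 9 of 10 members, by a median of -0.14 on the log2 scale, and held the lowest level of Bcan, Ncan, Vcan, Tnr and Tnc. The WT male was above the mean for 9 of 10, by a median of 0.13, Bcan being the exception. The other 4 libraries had 4 to 6 members above the mean. Counts of this kind were not made over all genes tested, so these have no background beside them. Acan in the WT female, at -0.81, was the farthest value from a member's mean.

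**Figure D4:**
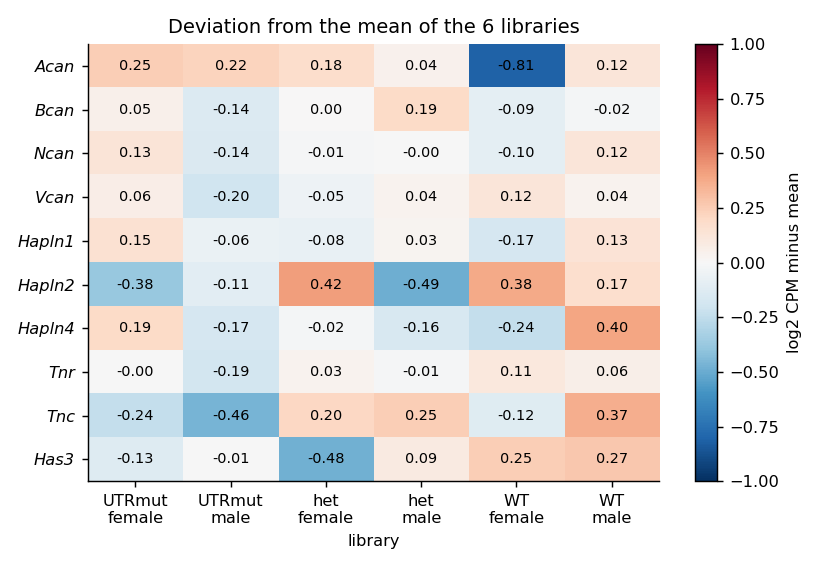
Level of each member in each library as log2 CPM minus its mean over the 6 libraries, red above and blue below. The UTRmut male column is blue for 9 members and the WT male column red for 9, and the single darkest cell is Acan in the WT female at -0.81.

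None of the 10 passed in females against males, fitted together with genotype (edgeR, Benjamini-Hochberg adjusted p = 0.832 to 0.978, 0 under an unadjusted p of 0.05, 0 by DESeq2), where 6 of 16119 genes passed (0.0372%; 0.00620% higher and 0.0310% lower in females) and 6.99% had an unadjusted p under 0.05. Log2 folds ran from -0.23 in Has3 (SE 0.25) to 0.31 in Hapln2 (SE 0.35), and no member had all female values on one side of all male values, where 6.45% of all genes lay above and 5.84% below.

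In the main fit, the change of Hapln4 per mutant allele differed between the female and the male libraries. In females it had 35.4 CPM in UTRmut, 30.5 in het and 26.2 in WT, and in males 27.6, 27.7 and 40.9. The change per allele in females minus that in males was 0.50 on the log2 scale (SE 0.11, 95% interval 0.27 to 0.74; edgeR, Benjamini-Hochberg adjusted p = 0.0357), so 1 of the 10 members passed, where 194 of 16119 genes did (1.20%) and 0.893% did in the positive direction. Each sex had 1 library per genotype, and the fit had 2 residual degrees of freedom. These come from departures from a straight line over allele number within each sex. The p-value thus holds no spread between libraries of the same sex and genotype. All females are replicate 1 and all males replicate 2, so sex and anything else shared by a replicate set cannot be told apart. The call was lost without the WT male (0.22, adjusted p = 0.893 in edgeR with Benjamini-Hochberg adjustment), without the WT female (0.51, 0.389), without the UTRmut female (0.51, 0.3899), without the robust option of edgeR (0.50, 0.0706) and in DESeq2 (0.51, 0.248), and the adjusted p ranged from 0.000583 to 0.893 over 10 alternatives.

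Ncan, the neighbour of Hapln4 on chromosome 8, had the next smallest p, with 469, 426 and 401 CPM in UTRmut, het and WT females and 388, 428 and 465 in males. Its difference of 0.24 (SE 0.06, 95% interval 0.11 to 0.38) missed the threshold, with an adjusted p of 0.0692 in edgeR (0.0116 to 0.597 over 10 alternatives). Hapln1 was at 0.26 (SE 0.10), Acan at 0.45 (SE 0.22) and Tnc at 0.35 (SE 0.19). Without the WT female, Acan was at 0.0236 and Tnc at -0.0341. In all 8 of 10 members had a positive difference, with a median of 0.19, where 48.9% of all genes were positive with a median of -0.00490, and 3 of 10 had an unadjusted p under 0.05, where 13.6% of all genes did. UTRmut exceeded WT in females for 5 of 10 members, and in males for 1 of 10, Acan, where 48.4% and 50.5% of all genes did. Has3 at -0.06 (SE 0.30) and Hapln2 at -0.23 (SE 0.42) were the negative ones.

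**Figure D5:**
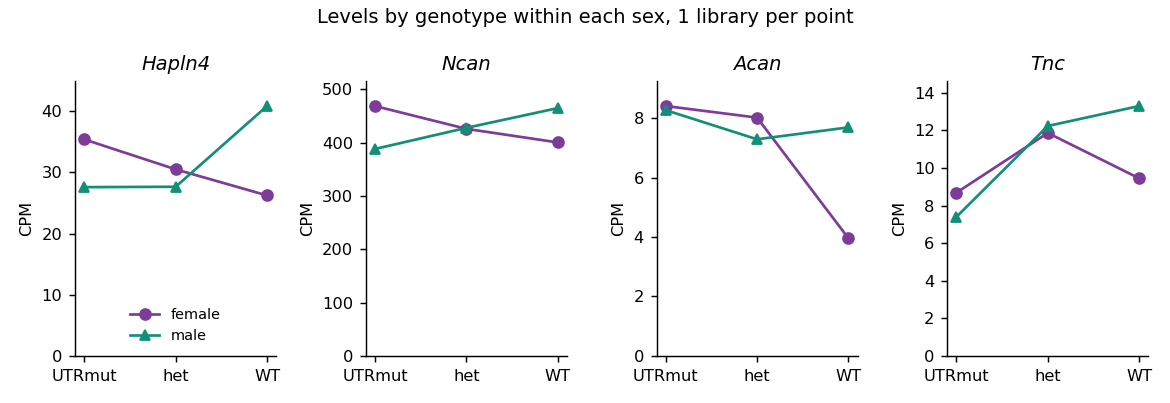
CPM of Hapln4, Ncan, Acan and Tnc by genotype, joined within each sex, with 1 library per point and axes from 0. The female value of Hapln4 is above the male one in UTRmut (35.4 against 27.6) and below it in WT (26.2 against 40.9), and the WT female is the low point of Acan.

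Genes outside the 10 also passed in this test. Among net partners, Ptprf, a receptor phosphatase of the LAR family that binds chondroitin sulfate proteoglycans, passed, at 0.46 (SE 0.07; edgeR, Benjamini-Hochberg adjusted p = 0.00231), and among proteases so did Mmp15, a membrane-bound metalloproteinase, at 0.71 (SE 0.17, adjusted p = 0.0484 in edgeR). Aqp4 of astrocytes, Rgs5 of pericytes and Col1a2 of fibroblasts passed at 0.38 (SE 0.08), 0.60 (SE 0.10) and 0.54 (SE 0.11). Ppp1r1b, on the striatal list, passed at -0.51 (SE 0.11). DESeq2 passed 1 gene each of the partner, astrocyte and vascular lists and 0 of the protease, meningeal and striatal lists. The difference was positive for 10 of 12 parvalbumin neuron genes, 11 of 13 net partners, 8 of 10 astrocyte, 8 of 10 vascular and 11 of 11 tested meningeal markers, and for 0 of 10 oligodendrocyte markers. It was positive for 12 of 20 chondroitin sulfate, 2 of 7 hyaluronan and 7 of 14 protease genes. Precursor, choroid plexus and hippocampal markers had 7 of 9, 3 of 3 and 3 of 5. Striatal and thalamic markers had 1 of 7, and cortical excitatory markers 6 of 8. Of all genes tested, 48.9% were positive. Summed meningeal markers were at 625 and 343 CPM in the UTRmut female and male, 560 and 787 in het, and 376 and 475 in WT. Col1a2 had 21.3 to 41.1 CPM over the libraries, so these sums rested mostly on other genes of the list. The part of the cells that these lists mark in the Hapln4 difference was not tested.

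The lectican and link protein genes lie side by side in the mouse genome (GRCm38, GENCODE M21). On chromosome 8, Hapln4 (70083457 to 70090862, plus strand) and Ncan (70093085 to 70120873, minus strand) are 2222 bases apart. On chromosome 13, Hapln1 (89539796 to 89611652, plus) and Vcan (89655312 to 89742509, minus) are 43659 bases apart. On chromosome 3, Bcan (87987531 to 88000230, minus) and Hapln2 (88021750 to 88027583, minus) are 21519 bases apart. Acan on chromosome 7 (79053483 to 79115099, plus) ends 2 bases before Hapln3 (79115102 to 79131018, minus), and no other protein-coding gene lies within any of these gaps. Tnr is on chromosome 1 (159523769 to 159931729, plus), Tnc on chromosome 4 (63959785 to 64047015, minus) and Has3 on chromosome 8 (106870242 to 106884566, plus).

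In level per kb, the lectican was the higher of the pair for Bcan and Ncan, and the link protein for Hapln1, without overlap between libraries. Hapln3, the partner of Acan, had 14 and 17 counts in UTRmut, 15 and 16 in het, and 16 and 12 in WT (log2 fold 0.12 in UTRmut against WT, SE 0.44; 0.25 in het against WT, SE 0.44). Its WT female value was the higher of the WT pair, unlike that of Acan. For Hapln3 this rests on 16 against 12 counts, and no counting interval was made for it.

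Within the Tnr gene, 2 other models on its strand that share no exon base with it were counted apart. Gm10530, a processed transcript (chromosome 1, 159614749 to 159684876), had 22 and 18 counts in UTRmut, 24 and 25 in het, and 40 and 51 in WT, so that WT lay above every carrier of the allele. Of all genes tested, 14.6% lay below WT without overlap in UTRmut and 13.6% in het. The share that did so in both was not computed. The log2 fold of Gm10530 was -1.19 in UTRmut against WT (SE 0.33) and -0.77 in het against WT (SE 0.32). With adjusted p of 0.9988 and 0.9998 in edgeR, it passed in neither. Before adjustment the edgeR p was 0.00288 and 0.0304, under 0.05 as in 2.71% and 2.37% of all genes. Gm37731, of class TEC, had 57 and 45, 58 and 49, and 62 and 59 counts. Both were named after their values were seen.

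Of the listed genes that build, bind or cut the net, none of those tested passed in UTRmut or het against WT. For the counts of positive folds below, the share over all genes tested was 47.9% in UTRmut and 48.9% in het. Of 20 tested genes of chondroitin sulfate synthesis, the sugar chains of lecticans, 10 were positive in UTRmut against WT (median 0.01) and 10 in het (median 0.00293). None passed in edgeR or DESeq2 and none had an unadjusted p under 0.05, where 2.71% and 2.37% of all genes did. Xylt1, which starts the chains, was at -0.18 (SE 0.12) and Fam20b, the xylose kinase, at 0.12 (SE 0.09) in UTRmut, and Csgalnact1 and Chsy1, which add and extend the sugars, at 0.26 and 0.24 (SE 0.13 each) in het. Of 7 tested genes of hyaluronan turnover 2 were positive in UTRmut (median -0.19) and 4 in het (median 0.02), with none past the threshold by either tool or under an unadjusted p of 0.05. The hyaluronidase Cemip2 was at -0.19 (SE 0.11) in UTRmut, and Cemip, a hyaluronan-degrading protein, at -0.14 (SE 0.11) in UTRmut and 0.09 (SE 0.11) in het. Hmmr, a hyaluronan receptor of dividing cells, was at -0.42 (SE 0.54) in het.

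Of 14 tested proteases of lecticans and tenascins 7 were positive in UTRmut (median -0.00231) and 9 in het (median 0.06), with none past the threshold in edgeR or DESeq2 and 1 in each comparison under an unadjusted p of 0.05. Adamts20 was at -0.40 (SE 0.15) in UTRmut. Mmp14, which cleaves matrix at the cell surface, had 9.68 and 10.4 CPM in het and 5.88 and 5.27 in WT (0.85, SE 0.22, edgeR adjusted p = 0.9998). Its UTRmut values, 5.98 and 7.31 CPM, lay below both het values. Mmp2 was at 0.53 (SE 0.40) in het. Of 13 net partners and receptors 7 were positive in UTRmut (median 0.03) and 6 in het (median -0.01), with none past the threshold and 1 and 0 under an unadjusted p of 0.05. Rtn4rl1, a Nogo receptor family member that binds chondroitin sulfate chains, had 70.2 and 78.2 CPM in UTRmut and 56.1 and 61.0 in WT (0.34, SE 0.10, edgeR adjusted p = 0.9988). Sema3a, held in nets by its binding to the chains, was at 0.27 (SE 0.15) in UTRmut. Its levels were 77.6 and 78.5 CPM in UTRmut, 69.4 and 75.2 in het, and 52.5 and 77.04 in WT, again with the WT female alone at the low end, as for Acan. The WT male thus lay close to the UTRmut values, and the Sema3a fold without the WT female is not reported here. In het, the Nogo receptor Rtn4r was at -0.19 (SE 0.11) and Tnxb at -0.50 (SE 0.32).

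Markers of the cells that make or wear the net did not pass in either comparison with WT. Of 12 parvalbumin neuron genes 6 were positive in UTRmut and 5 in het (medians 0.01 and -0.00331), with 1 gene in each comparison under an unadjusted p of 0.05. Of all genes tested, 47.9% and 48.9% were positive, and 2.71% and 2.37% had an unadjusted p under 0.05. Gad1, which makes GABA, was at 0.22 (SE 0.08) and Tac1 at -0.42 (SE 0.20) in UTRmut, and the potassium channel Kcnc1 at -0.29 (SE 0.12) and Syt2 at -0.31 (SE 0.15) in het. Of 10 astrocyte markers 8 and 7 were positive, with Slc1a3 at 0.18 and 0.15 (SE 0.08 each), Aldoc at 0.14 (SE 0.08) in UTRmut and Gfap at 0.31 (SE 0.12) in het. Of 10 oligodendrocyte markers 1 and 2 were positive, with Mag at -0.14 (SE 0.11) in UTRmut, and Mog at -0.26 (SE 0.13) and Cnp at -0.09 (SE 0.10) in het. Of 9 precursor markers 3 and 3 were positive, with C1ql1 at 0.53 and 0.47 (SE 0.32 and 0.33), Gpr17 at -0.16 (SE 0.11) in UTRmut and Neu4 at -0.14 (SE 0.18) in het. None of these genes passed in edgeR or DESeq2.

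Markers of other cells and regions were counted as well, and none passed in edgeR or DESeq2. In UTRmut and het against WT, the log2 fold was positive for 4 and 9 of 11 meningeal, 2 and 6 of 10 vascular, 0 and 1 of 3 choroid plexus and 3 and 3 of 5 hippocampal markers. It was positive for 4 and 4 of 7 striatal and thalamic and 3 and 0 of 8 cortical excitatory markers, where 47.9% and 48.9% of all genes were positive. Choroid plexus genes summed to 3.36 and 11.1 CPM in UTRmut, 5.52 and 7.01 in het, and 4.53 and 51.3 in WT, mostly from Ttr in the WT male at 42.1 CPM (het against WT -5.40, SE 3.07). Kl and Kcnj13 were at -0.80 (SE 0.42) and -0.78 (SE 0.55) in UTRmut, and Kcnj13 at 0.32 (SE 0.49) in het. Meningeal Col3a1 and Fmod were at -0.46 and 0.43 (SE 0.38 each) in UTRmut, and Dcn and Slc22a6 at 0.68 (SE 0.30 and 0.34) in het. Vascular Vtn was at 0.34 and 0.61 (SE 0.17 each), Flt1 at -0.33 (SE 0.19) in UTRmut and Tagln at 0.995 (SE 0.42) in het. Hippocampal C1ql2 was at -1.19 (SE 0.32) and Fibcd1 at 0.20 (SE 0.22) in UTRmut, with Calb2 and Prox1 at 0.21 (SE 0.17) and 0.12 (SE 0.19) in het. Striatal Drd1 was at 0.29 and 0.31 (SE 0.18 each), Prkcd at 0.20 (SE 0.22) in UTRmut and Ppp1r1b at -0.13 (SE 0.20) in het. Cortical Rorb was at 0.17 (SE 0.10) in UTRmut and Scnn1a at -0.99 (SE 0.36) in het. The part of these cells in the levels of net matrix genes was not tested.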

How the data were processed

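Total RNA from visual cortex was made into stranded total RNA libraries, per the labels' protocols. The authors deposited counts per Ensembl gene for 6 libraries. The submitters' processing notes name the build GRCm38 and the tools HTSeq 0.6.0, GATK 4.2.3.0, Trimmomatic 0.39 and HISAT2, and the strand setting of the counting is not given in the sources used here.

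Symbols and positions came from GENCODE M21. Genes were kept with edgeR's filter (minimum count 10, minimum total 15), scaled with TMM and tested with the edgeR 4.0.16 quasi-likelihood F test (robust, R 4.3.3, limma 3.58.1), with Benjamini-Hochberg adjustment over all 16119 genes and a threshold of 0.05. All 6 libraries entered each fit. The genotype fit left 3 residual degrees of freedom, the fit per allele 4, and the fits with sex 2. The SE of a log2 fold was its size over the root of its F value. The scripts were tested on simulated data with 200 changed genes. Alternatives were DESeq2 1.42.0, RLE size factors, no filter, sex as a block, no robust option and leaving out each library.

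The 2 libraries of a genotype came from different animals, a female and a male. Nothing in the labels says whether they shared a litter or whether animals were pooled. In the genotype and per allele fits, which left sex out, p-values measure the spread between these libraries. That spread holds any difference between the female and the male library together with technical spread, and these parts were not separated. In the per allele fit, the residual spread also holds departures of the genotype means from a straight line over allele number. In the fit of the difference between the sexes, p-values rest on departures from such a line within each sex. Counting intervals are exact Poisson, at 95%, and cover counting error only. The 10 genes, the gene lists and the tests were chosen with earlier results of these data known. From each further list, genes that passed were named, otherwise the 2 with the smallest unadjusted p in each comparison with WT. Some genes that this rule names are not reported here. The list of cortical excitatory neuron genes was added later.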

Additional observations from a re-analysis of the deposited data

Results flagged for a closer look

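Hapln4 stood out because its change per mutant allele differed between female and male libraries, by 0.50 on the log2 scale in females minus males (SE 0.11, edgeR, Benjamini-Hochberg adjusted p = 0.0357). UTRmut was above WT in females, at 35.4 and 26.2 CPM, and below WT in males, at 27.6 and 40.9 CPM, with 1 library for each. Sex and replicate set cannot be told apart, and the p-value of this test holds no spread between libraries of the same sex and genotype. The adjusted p was 0.893 without the WT male, and 0.000583 to 0.893 over 10 alternatives.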

How the results depend on the processing

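No net matrix gene passed under any alternative in UTRmut or het against WT, UTRmut against het, per allele or females against males. For the difference between the sexes, the count of 1 became 0 with DESeq2, 2 without a filter, 0 without the robust option and 0 to 2 when a library was left out. Values that changed sign did so when a library was left out. In UTRmut against WT these were Bcan (-0.0808 to 0.10), Ncan (-0.16 to 0.12), Hapln1 (-0.0883 to 0.22) and Hapln4 (-0.38 to 0.27). In het against WT these were Acan (-0.0129 to 0.95), Ncan (-0.13 to 0.10), Hapln1 (-0.16 to 0.15), Hapln2 (-0.86 to 0.15), Hapln4 (-0.50 to 0.15) and Tnc (-0.15 to 0.35). In UTRmut against het these were Ncan (-0.14 to 0.14), Vcan (-0.20 to 0.0711), Hapln1 (-0.0408 to 0.18), Hapln2 (-0.72 to 0.29), Hapln4 (-0.0749 to 0.28) and Has3 (-0.16 to 0.45). Per allele these were Bcan (-0.0310 to 0.0675), Ncan (-0.0698 to 0.0470), Hapln1 (-0.0287 to 0.11) and Hapln4 (-0.15 to 0.13). In females against males these were Acan (-0.43 to 0.0776), Bcan (-0.13 to 0.0513), Ncan (-0.11 to 0.13), Vcan (-0.00308 to 0.17), Hapln1 (-0.20 to 0.0606), Hapln2 (-0.0151 to 0.57), Hapln4 (-0.26 to 0.25) and Tnc (-0.27 to 0.0817). In the difference between the sexes these were Bcan (-0.13 to 0.40), Vcan (-0.0543 to 0.25), Hapln2 (-0.82 to 0.35), Tnc (-0.0341 to 0.74) and Has3 (-0.63 to 0.53). The cause was not tested.

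In the labels replicate 1 is always female and replicate 2 always male, and nothing says whether a number also marks a shared litter or batch. Deviations of same-numbered libraries correlated at 0.0802 (UTRmut and WT), 0.295 (het and WT) and 0.196 (UTRmut and het). With the replicate block, 0 of the 10 genes passed in each genotype comparison, and over all genes 4 passed in UTRmut against WT (1 without the block), 3 in het against WT (2) and 5 in UTRmut against het (2). Over all genes, 1 call in UTRmut against WT became 8 with DESeq2, 27 without a filter, 103 without the WT male and 0 without the UTRmut male. Het against WT had 2, against 3 and 13, and 1 to 30 without a library. UTRmut against het had 2, against 7 and 28, and 0 to 10. Per allele there were 0, against 4 and 19, and 0 to 36. Females against males had 6, against 10 and 92, and 5 to 197. The difference between the sexes had 194, against 77 and 600, 121 without the robust option, and 24 to 736. The order of levels was the same by longest transcript, where Bcan was at 51.9 and Vcan at 2.33 CPM per kb. A lone library left in a genotype was assumed to vary like the others, and low counts limit Hapln2 and Has3.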
